A study of Homo sapiens with 4 samples.

Results

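The mevalonate pathway carries acetyl-CoA to the isoprenoid units from which sterols, dolichol, ubiquinone and the lipid anchors of small GTPases are built. Transcripts of 9 enzyme genes of this pathway, ACAT2, HMGCS1, MVK, PMVK, MVD, IDI1, FDPS, FDFT1 and SQLE, were examined from the first condensation of acetyl-CoA to squalene epoxide. The genes were taken by name and ordered by their place in the pathway. All 9 were present among 15221 genes with values, and all 9 passed the minimum of 5 counts in at least 2 libraries that left 15101 genes for testing.

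RNA-seq of 2 libraries of PANC-1 and 2 libraries of PZT-2 was compared. PANC-1 is a human pancreatic ductal adenocarcinoma line and was neither transduced nor treated. PZT-2 is a single knockdown (KD) clone of PANC-1 that carries lentiviral shRNAs driven by the U6 promoter. Of these, 1 is against H2A.Z.1 and 1 against both isoforms of H2A.Z.2. The clone was transduced in the presence of polybrene and selected with puromycin, unlike PANC-1. What is particular to this clone, what follows from the knockdown and what follows from transduction and selection cannot be told apart. Both lines were grown in DMEM with 10% FBS, at passages 12 to 13 by the labels, and libraries of cells with a scrambled shRNA were not analysed here. The study sequenced these cells to find genes dysregulated when the histone variant H2A.Z is depleted, a question that this comparison alone cannot settle.

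In this pathway, ACAT2 joins acetyl-CoA units and HMGCS1 adds a further one to form HMG-CoA, the precursor of mevalonate. The kinases MVK and PMVK and the decarboxylase MVD turn mevalonate into isopentenyl diphosphate, which IDI1 interconverts with dimethylallyl diphosphate. FDPS condenses these units to farnesyl diphosphate, where the sterol branch parts from the prenyl, dolichol and ubiquinone branches. FDFT1, squalene synthase, commits farnesyl diphosphate to sterols, and SQLE, squalene epoxidase, adds the oxygen that precedes ring closure. Transcription of these genes is known to be driven by sterol regulatory element-binding proteins (SREBPs), which act together with NF-Y, a factor that binds the CCAAT box, and with Sp1, which binds GC boxes.

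Counts recovered per library were 12861486 to 15717578, and the median gene differed between replicates by 0.14 on the log2 scale in PANC-1 and by 0.12 in PZT-2. The targeted genes were lower in PZT-2: H2AFZ, which encodes H2A.Z.1, had a log2 fold change of -1.47 (SE 0.0565, edgeR adjusted p = 6.14e-05), and H2AFV, which encodes H2A.Z.2, one of -0.36 (SE 0.0568, adjusted p = 0.00563). The H2AFV call was lost without PZT-2 replicate 1 (log2 fold change -0.32). It was also lost when only the most abundant transcript was counted (-0.26, edgeR adjusted p = 0.0687). The ductal keratins KRT8, KRT18 and KRT19 were abundant in both lines and lower in PZT-2, by 1.17, 0.81 and 0.73 on the log2 scale, and KRT7 was not called at -0.27. Of 4 fibroblast markers only COL1A1 had values, lower in the KD clone by 1.75 on the log2 scale, and of 4 leukocyte markers only CD68 had values, not called at 0.03. The defining fibroblast genes DCN and LUM and the leukocyte genes PTPRC, CD3E and CD79A were not among the genes with values.

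Sequence upstream of the start site was read from RefSeq (GRCh38.p14) for the 6 members in the promoter table, as the 250 bases before the start, 5′ to 3′ on the gene's strand. ACAT2, FDFT1 and SQLE were not matched. MVK, MVD and FDPS are shown because they hold the most CCAAT boxes of the members, and PMVK because it holds none. Capitals mark CCAAT or its reverse complement ATTGG. MVK lies on chromosome 12 (chr12:109573544-109573793, plus strand), MVD on chromosome 16 (chr16:88663092-88663341, minus strand), FDPS on chromosome 1 (chr1:155308616-155308865, plus strand) and PMVK on chromosome 1 (chr1:154936720-154936969, minus strand).
MVK: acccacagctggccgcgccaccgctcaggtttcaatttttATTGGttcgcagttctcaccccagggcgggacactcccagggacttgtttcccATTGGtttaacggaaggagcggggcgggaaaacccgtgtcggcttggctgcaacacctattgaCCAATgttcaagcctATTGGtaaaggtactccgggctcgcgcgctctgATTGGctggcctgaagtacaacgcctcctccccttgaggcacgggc
MVD: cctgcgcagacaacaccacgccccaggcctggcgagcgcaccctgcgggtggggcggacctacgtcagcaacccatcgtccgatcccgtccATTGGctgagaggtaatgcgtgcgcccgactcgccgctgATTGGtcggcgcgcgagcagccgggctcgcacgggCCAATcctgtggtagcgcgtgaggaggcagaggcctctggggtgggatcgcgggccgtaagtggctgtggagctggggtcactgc
FDPS: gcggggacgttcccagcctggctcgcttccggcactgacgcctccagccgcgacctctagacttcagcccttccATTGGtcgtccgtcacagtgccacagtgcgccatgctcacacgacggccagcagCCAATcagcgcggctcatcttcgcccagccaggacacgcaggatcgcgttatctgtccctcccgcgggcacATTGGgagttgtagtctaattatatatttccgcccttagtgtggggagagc
PMVK: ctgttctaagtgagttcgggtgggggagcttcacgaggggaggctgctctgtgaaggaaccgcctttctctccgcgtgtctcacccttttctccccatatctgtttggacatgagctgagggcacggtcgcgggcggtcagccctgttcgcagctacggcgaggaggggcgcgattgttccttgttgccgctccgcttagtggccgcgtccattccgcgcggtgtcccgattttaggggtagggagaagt

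The MVK window held 5 such boxes, the MVD and FDPS windows 3 each and the PMVK window 0. The windows of HMGCS1 (chr5:43313413-43313662, minus strand) and IDI1 (chr10:1049120-1049369, minus strand) held 2 each. Thus 5 of the 6 members had at least 1 CCAAT box on either strand, and the same 5 had at least 2. Of all 27305 promoters of the same length, 33.0% had at least 1 and 10.0% at least 2. Among the 11337 promoters of genes tested here the shares were 34.4% and 12.4%, and among the 1624 of genes called lower 36% and 15.3%. The windows were not chosen alike. For members the window nearest the start of the most abundant transcript was taken, and for the comparison promoters the first listed for each gene. CCAAT boxes were also frequent among 10 promoters of enzymes from lanosterol to cholesterol, of which 80% had at least 1 and 40% at least 2. The GC box GGGCGG, searched on both strands, was found in 6 of 6 members and in 80% of those 10 promoters. It was found in 42.3% of all promoters and 66.1% of those of genes tested. At least 2 GC boxes were found in 33.3% of the members, 40% of the 10 promoters and 41.4% of the promoters of genes tested. TCACNCCAC, a sterol regulatory element core, was found in 0 of 6 members and 0.875% of all promoters, and the E-box CACGTG in 0 of 6 and 6.49%. These are matches of letters in a window of 250 bases and do not show that a factor binds there or is absent.

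All 9 members were downregulated in PZT-2. Each had an edgeR adjusted p under 0.05 and a negative log2 fold change, where 13.7% of all genes tested were called lower and 14.7% were called higher. In each of the 9, the higher PZT-2 library was under the lower PANC-1 library, which was so for 32.9% of all genes tested. The members' median log2 fold change was -1.03, against 0.000969 over all genes tested. The decrease was at least 2-fold in 5 members, ACAT2, HMGCS1, MVK, FDFT1 and SQLE, and 2.61% of all genes tested were called lower by at least 2-fold. Here and below, counts are normalized to the mean library, errors are SD over 2 libraries, and p-values are adjusted by Benjamini-Hochberg over all genes tested. In bulk RNA, fewer transcripts per cell and fewer cells that express a gene cannot be told apart.

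**Figure D1:**
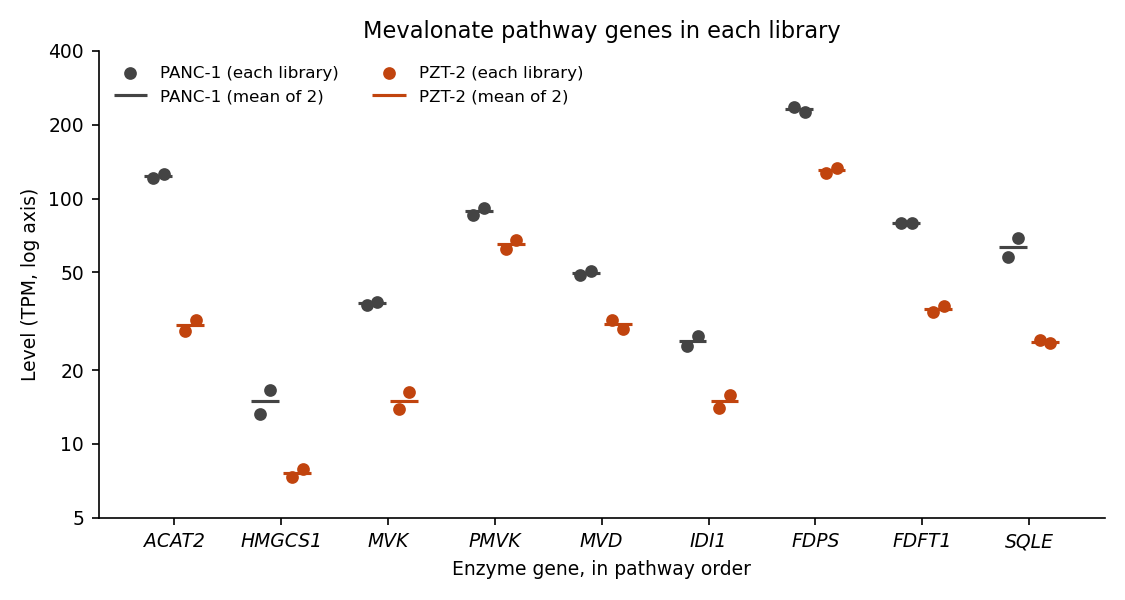
Level of each pathway gene in TPM (transcript abundance corrected for transcript length and library size, log axis), in pathway order, with a point for each library and a line for the mean of 2. For each of the 9 genes the PZT-2 points are under the PANC-1 points, with FDPS the most abundant (231 TPM in PANC-1) and HMGCS1 the least (14.9 TPM).

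The first step showed the largest change of the members. ACAT2, the cytosolic acetoacetyl-CoA thiolase, had normalized counts of 1393 and 1412.5 in the PANC-1 libraries and of 314 and 349 in the PZT-2 libraries. Both PZT-2 libraries were far below PANC-1, and the replicates of each line were close. The mean fell from 1403 ± 13.7 to 332 ± 24.8 (SD, n = 2), which gave a log2 fold change of -2.08 (SE 0.0786, 95% interval -2.27 to -1.89, adjusted p = 5.90e-05). This is 4.23-fold lower and placed ACAT2 at rank 170 of 15101 from the most negative fold change. Its 3′ end overlaps TCP1 on the opposite strand, and whether strand was used in the quantification is not given in the sources used here.

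HMGCS1, the HMG-CoA synthase of the cytosol, had normalized counts of 572 and 689.5 in PANC-1 and of 297 and 323 in PZT-2. The PANC-1 replicates lay further apart than for any other member, by 0.27 on the log2 scale, and the groups did not overlap. The log2 fold change was -1.03 (SE 0.116, 95% interval -1.31 to -0.75, adjusted p = 0.00178). It was -1.63 when only the most abundant transcript was counted. The decrease of HMGCS1 was less than 2-fold when PANC-1 replicate 2 was left out (-0.89) or when replicate 1 of PZT-2 was (-0.97). It was also less than 2-fold with limma on log2(TPM + 1), at -0.88, and on log2(TPM + 0.1), at -0.95.

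The mevalonate kinase MVK had normalized counts of 574 and 571 in PANC-1 and of 204 and 240.3 in PZT-2. The PZT-2 replicates differed by 0.23 on the log2 scale, the widest gap of a member in that line, and both were well under the PANC-1 libraries. The log2 fold change was -1.36 (SE 0.104, 95% interval -1.61 to -1.11, adjusted p = 5.17e-04).

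PMVK, which adds the next phosphate, changed least of the members. Its normalized counts were 802 and 807 in PANC-1 and 547 and 591 in PZT-2. The groups were separate, with a smaller gap than for the other members. The log2 fold change was -0.50 (SE 0.0752, 95% interval -0.68 to -0.32, adjusted p = 0.00462), so that PZT-2 kept 70.7% of the PANC-1 level.

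MVD, the decarboxylase that yields isopentenyl diphosphate, had normalized counts of 679.6 and 684 in PANC-1 and of 424 and 389 in PZT-2. The log2 fold change was -0.75 (SE 0.0816, 95% interval -0.94 to -0.55, adjusted p = 0.00154). The isomerase IDI1 had 575 and 616 normalized counts in PANC-1 and 302 and 345 in PZT-2. Both genes were lower in both PZT-2 libraries. For IDI1 the log2 fold change was -0.88 (SE 0.0987, 95% interval -1.12 to -0.64, adjusted p = 0.00171).

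FDPS, the farnesyl diphosphate synthase at the branch point, was the most abundant member. It had normalized counts of 2367.5 and 2194 in PANC-1 and of 1202 and 1266 in PZT-2. The groups did not overlap, and the mean fell from 2281 ± 123 to 1234 ± 45.2 (SD, n = 2). The log2 fold change was -0.89 (SE 0.0677, 95% interval -1.05 to -0.72, adjusted p = 5.17e-04). GENCODE 29 names several processed pseudogenes of FDPS, and reads shared with them could not be told apart from these values.

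The sterol-committed steps after the branch point were also lower. FDFT1 had normalized counts of 1297 and 1271 in PANC-1 and of 549 and 575 in PZT-2, and fell with a log2 fold change of -1.19 (SE 0.0671, 95% interval -1.35 to -1.03, adjusted p = 2.08e-04). SQLE, known as a rate-limiting oxygen-dependent step, had 1324 and 1539 normalized counts in PANC-1 and 576 and 565 in PZT-2. Both SQLE libraries of PZT-2 were far below either PANC-1 library. Its log2 fold change was -1.33 (SE 0.0900, 95% interval -1.55 to -1.11, adjusted p = 3.65e-04).

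The members differed among themselves in how far they fell. From the largest decrease the order was ACAT2, MVK, SQLE, FDFT1, HMGCS1, FDPS, IDI1, MVD and PMVK. Of the 8 neighbouring pairs in this order, only ACAT2 and MVK had 95% intervals that did not overlap, with a gap of -0.72 on the log2 scale. Of all 36 pairs, 18 had intervals that did not overlap. The intervals of the other 7 neighbouring pairs overlapped, and their differences were not tested. The order did not follow the pathway: ACAT2 and MVK, which act early, fell most, and so did the late SQLE, while PMVK and MVD fell least.

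Per length, the 9 members together made up 704 and 724 TPM in the PANC-1 libraries and 346 and 365 TPM in the PZT-2 libraries. The PZT-2 sum was 49.8% of that in PANC-1. FDPS had the highest level, 231 ± 6.96 TPM in PANC-1 and 130.2 ± 4.89 TPM in PZT-2 (SD, n = 2), and HMGCS1 the lowest, 14.9 ± 2.30 and 7.64 ± 0.422 TPM. The highest level exceeded the lowest by 15.5-fold in PANC-1 and 17.1-fold in PZT-2. ACAT2 changed place most, from 17.3% of the members' TPM in PANC-1 to 8.56% in PZT-2, and moved from position 2 to position 5. PMVK went from 12.4% to 18.3% of the sum, and from position 3 to position 2.

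The 9 genes were read as 25 transcripts, and tests of single transcripts were less decisive than those of genes. With edgeR 1 of the 25 was called lower, NM_005891 of ACAT2 (log2 fold change -2.05, adjusted p = 0.0348), where 0.0792% of 30301 transcripts tested were called lower, and 12 of the 25 had an unadjusted p under 0.05. Fits with any 1 library left out called no transcript of any gene, so they say nothing particular to the members. With DESeq2 12 of the 25 were called lower, at least 1 in each of the 9 genes, where 7.24% of transcripts were called lower. Of the 25, 21 had a negative and 4 a positive log2 fold change. No member transcript was called higher by either tool.

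**Figure D2:**
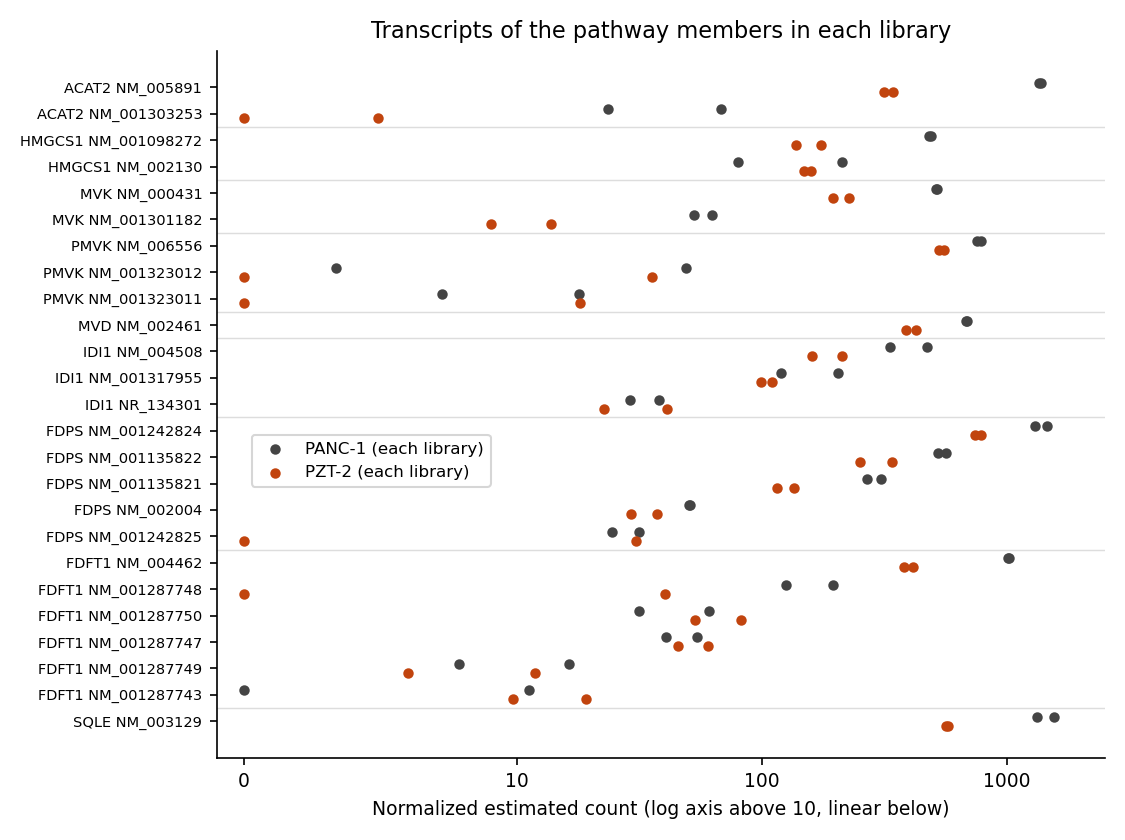
Normalized estimated count of each of the 25 transcripts in each library (log axis above 10, linear below), grouped by gene. The most abundant transcript of each gene is lower in both PZT-2 libraries, for ACAT2 NM_005891 at 313 and 342 against 1369 and 1351 in PANC-1, and several transcripts with low counts overlap.

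The transcripts of HMGCS1 did not move alike. NM_001098272 had 491 and 481 normalized counts in PANC-1 and 138 and 175 in the KD clone (log2 fold change -1.64, edgeR adjusted p = 0.0701). NM_002130 had 79.8 and 213 in PANC-1 and 159 and 148 in the KD clone (log2 fold change 0.07, adjusted p = 0.983). The PANC-1 libraries thus lay on both sides of the PZT-2 libraries for NM_002130. The share of NM_001098272 in the gene was 76.0% in PANC-1 and 50.6% in PZT-2, and the difference of shares was not tested. A similar spread was seen in FDFT1, where the main transcript NM_004462 went from 1012 and 1021 to 379.8 and 413 (log2 fold change -1.36, edgeR adjusted p = 0.0510), and NM_001287750 differed by 0.55 on the log2 scale (adjusted p = 0.741). Each MVD and SQLE value rests on 1 transcript, NM_002461 and NM_003129.

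Past squalene epoxide, every enzyme on the list from lanosterol to cholesterol was lower. All 10 genes were called lower (edgeR), with a median log2 fold change of -0.90, where 13.7% of all genes tested were called lower. The largest decreases were in DHCR7, which makes cholesterol from its last precursor (3584 and 3307.5 to 987 and 934 normalized counts, log2 fold change -1.84, adjusted p = 5.90e-05), in LSS, which closes the rings of squalene epoxide to lanosterol (log2 fold change -1.33, adjusted p = 1.33e-04), and in MSMO1, a methylsterol oxidase (log2 fold change -1.30, adjusted p = 5.01e-04). LBR, with the smallest change at -0.40, was not called without PZT-2 replicate 1 (adjusted p = 0.0887) or replicate 2 (adjusted p = 0.0820). TM7SF2 was not called without either of them (adjusted p = 0.0581 and 0.0523), nor HSD17B7 without PZT-2 replicate 1 (adjusted p = 0.0524). With limma on log2(TPM + 1) or log2(TPM + 0.1) 9 of the 10 were called, without LBR (adjusted p = 0.0764 and 0.0780). With the most abundant transcript alone 8 were called, without LBR (adjusted p = 0.0658) and SC5D (adjusted p = 0.0513).

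The branches that leave the pathway at farnesyl diphosphate or just before it were read in the same fit. Of 20 genes for prenylation, dolichol and ubiquinone synthesis, 2 were called lower, 1 was called higher and 17 were not called, with a median log2 fold change of -0.05. These counts stand beside the 13.7% of all genes tested called lower and the 14.7% called higher, and a difference from the members was not tested. GGPS1, which makes geranylgeranyl diphosphate, had 322 and 336 normalized counts in PANC-1 and 227 and 216 in the KD clone (log2 fold change -0.57, edgeR adjusted p = 0.00761). Its call was lost without PZT-2 replicate 2 (log2 fold change -0.53) and with the most abundant transcript alone (-0.62, edgeR adjusted p = 0.0731). ZMPSTE24, a protease of prenylated proteins, was lower by a log2 fold change of -0.53 (adjusted p = 0.00313). NUS1, a subunit of the dolichol-forming prenyltransferase, had one of 0.32 (adjusted p = 0.0167). NUS1 was not called without PZT-2 replicate 2 (log2 fold change 0.26) or with the most abundant transcript alone (0.31, edgeR adjusted p = 0.0524).

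Genes that supply acetyl-CoA, and the paralogues of members that act in mitochondria, in ketone metabolism or beside IDI1, were read in the same fit. Of 7 such genes 6 had values, 2 were called lower and 0 higher, and the median log2 fold change was -0.07. Over all genes tested 13.7% were called lower and 14.7% higher. The mitochondrial citrate carrier SLC25A1 differed by -0.69 on the log2 scale (edgeR adjusted p = 7.33e-04), or -0.29 when only its most abundant transcript was counted (adjusted p = 0.101). ATP-citrate lyase, ACLY, had one of -0.20 (adjusted p = 0.0350). ACLY was not called without PZT-2 replicate 1 (log2 fold change -0.18) or replicate 2 (-0.22). Nor was ACLY called with limma on either TPM scale, with the replicate number as a block or with the most abundant transcript alone (-0.13). The mitochondrial thiolase ACAT1, which catalyses the same kind of reaction as ACAT2, had normalized counts of 1270.4 and 1343 in PANC-1 and of 1146 and 1264 in the KD clone (log2 fold change -0.12, adjusted p = 0.286). The paralogue IDI2 had 36.0 and 31.6 normalized counts in PANC-1 and 31.2 and 40.5 in the KD clone (log2 fold change 0.09, adjusted p = 0.856). ACAT1 and IDI2 were singled out after their values were seen.

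**Figure D3:**
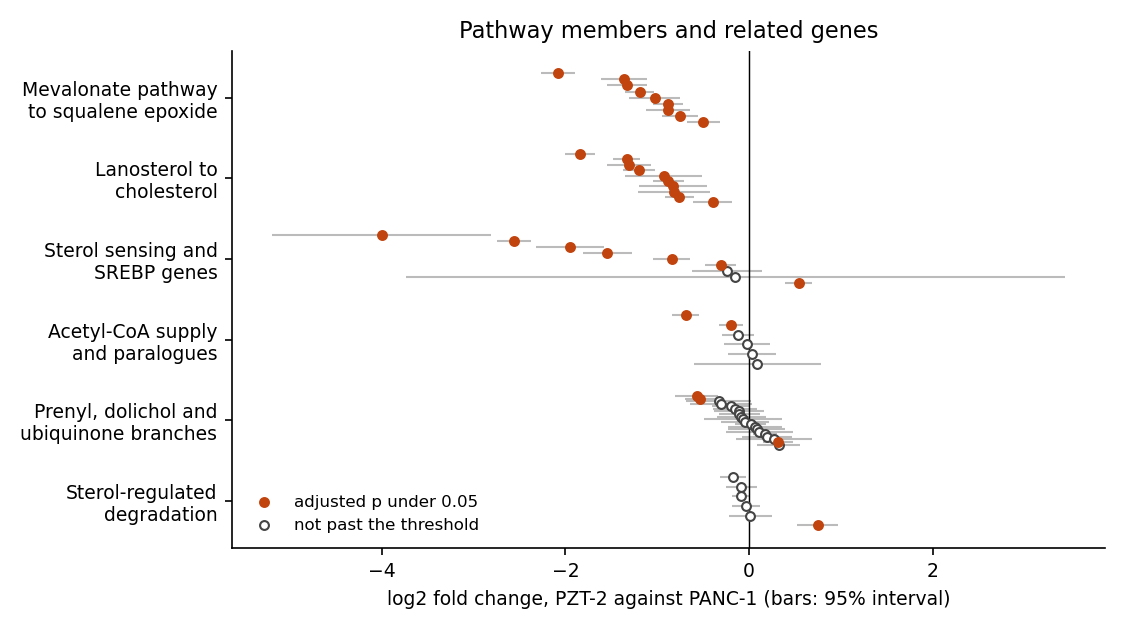
Log2 fold change of PZT-2 against PANC-1 for each gene of the pathway and of 5 related lists, with its 95% interval; filled points have an adjusted p under 0.05. The 9 members and the 10 genes from lanosterol to cholesterol all lie left of zero, while the prenyl, supply and degradation lists centre near zero with medians of -0.05, -0.07 and -0.06.

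Genes of sterol regulation, which here take in SREBPs, their controls and a sterol carrier, were mostly lower. Of 9 genes 6 were called lower and 1 higher, with a median log2 fold change of -0.84. MBTPS1, with the smallest change of the 6 at -0.31, lost its call without PZT-2 replicate 1 (-0.32) or replicate 2 (-0.30). It was also not called with the most abundant transcript alone (-0.31, edgeR adjusted p = 0.0593). Over all genes tested 13.7% were called lower and 14.7% higher. INSIG1, which retains the SREBP complex in the endoplasmic reticulum and is itself an SREBP target, had 1533 and 1572 normalized counts in PANC-1 and 252 and 274 in the KD clone (log2 fold change -2.56, edgeR adjusted p = 5.00e-05). SREBF1, which encodes SREBP-1, had 3153 and 2288 in PANC-1 and 731 and 675 in the KD clone (log2 fold change -1.95, adjusted p = 5.41e-04). For both genes the lines were well apart, although the PANC-1 libraries of SREBF1 differed widely. SREBF2, which encodes the SREBP that chiefly drives cholesterol synthesis and was singled out after its values were seen, had 2824 and 2277 in PANC-1 and 907 and 841 in the KD clone (log2 fold change -1.54, adjusted p = 4.42e-04). STARD4, a sterol carrier, was counted 45 and 37 times in PANC-1 and 3 and 2 times in PZT-2. The ratio of PANC-1 to PZT-2 over both libraries was 16.5 (exact 95% interval 6.78 to 52.1, counting error only). SCAP, the escort of SREBPs, differed the other way, by 0.54 on the log2 scale (adjusted p = 0.00170).

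Of 6 genes of the ubiquitin route through which sterols control pathway enzymes after translation, 0 were called lower and 1 was called higher. Over all genes tested the shares were 13.7% and 14.7%. The median log2 fold change of the 6 genes was -0.06. The ubiquitin ligase RNF145 had 1093 and 1314 normalized counts in PANC-1 and 2047 and 2005 in the KD clone (log2 fold change 0.75, edgeR adjusted p = 0.00233). These are transcript levels, and no protein was measured in these libraries.

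The members lie on 7 chromosomes, and the genes beside them in the RefSeq annotation were read for comparison. Of the 18 nearest genes tested, 1 on each side of each member, 2 were called lower, 1 was called higher and 15 were not called. Their median log2 fold change was 0.03. Over all genes tested 13.7% were called lower and 14.7% higher. MMAB, an enzyme of cobalamin metabolism that lies head to head with MVK, had 639 and 655 normalized counts in PANC-1 and 277 and 307 in the KD clone (log2 fold change -1.15, edgeR adjusted p = 5.20e-04). The upstream windows of MVK and MMAB share 211 bases, so that the 5 CCAAT boxes shown for MVK are counted in a window mostly held in common. TCP1, a chaperonin subunit whose gene overlaps ACAT2 tail to tail, differed by -0.34 on the log2 scale (adjusted p = 0.00945), not called without PZT-2 replicate 1 (adjusted p = 0.0534) or replicate 2 (adjusted p = 0.0756). CYBA, beside MVD, had one of 0.49 (adjusted p = 0.00585).

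**Figure D4:**
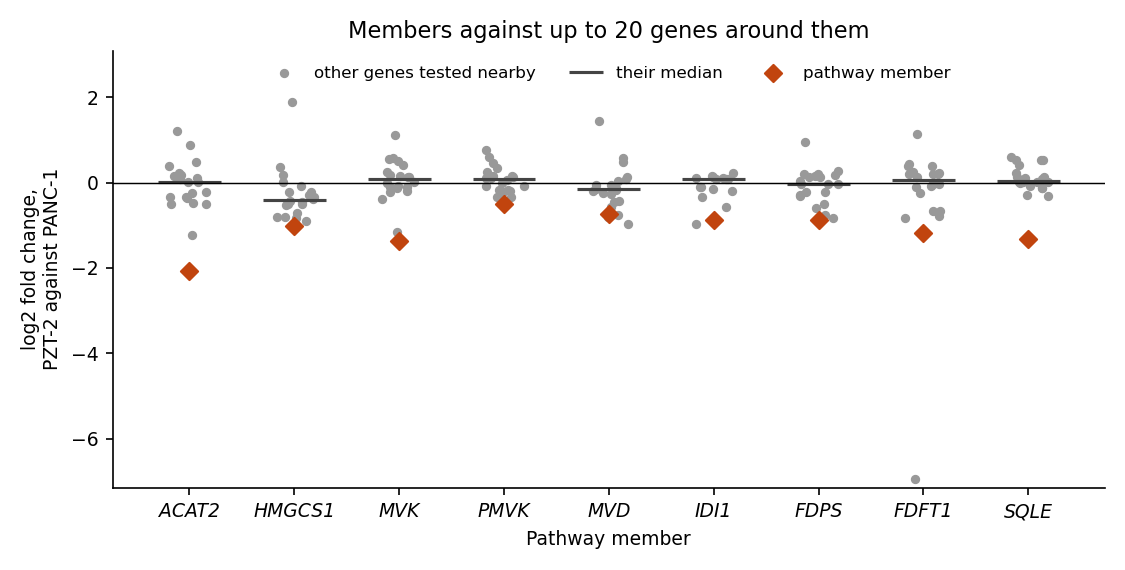
Log2 fold change of each pathway member (diamond), of up to 20 tested genes around it (points, 10 on each side) and their median (line). The members lie below the median of the genes around them in all 9 windows, and only around HMGCS1 is that median itself well below zero, at -0.42.

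Among up to 20 tested genes around each member, the median log2 fold change lay between -0.16 and 0.08 for 8 members. Around HMGCS1 it was -0.42, and the median over its chromosome was -0.13. Around HMGCS1 5 of 20 genes were called lower, as many as around ACAT2 and around MVD, where 13.7% of all genes tested were called lower. None of those 20 genes had a more negative fold change than HMGCS1. For MVD 3 of 20 genes did, for IDI1 1 of 15 and for FDFT1 1 of 20, and for each of the other members 0 of 20. Whether the genes around HMGCS1 bear on its change was not tested.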

How the data were processed

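Stranded mRNA libraries of PANC-1 (2) and PZT-2 (2) had been sequenced as paired ends. The authors used Trim Galore 0.4.1 for trimming, kallisto 0.43.0 with a RefSeq transcript index for abundance and sleuth 0.29.0 for a Wald test between the lines. The estimated counts as deposited carry 1 scaling factor per library (1.16, 0.935, 1.03 and 1.01), found from the values, since 48.5% to 50.0% of values between 0.5 and 30 in genes with 1 transcript become whole within 0.01 once it is undone, against 0.635% to 2.71% before. The factor was undone, counts were summed per gene (27049 transcripts by the deposited symbol, 3925 by accession in RefSeq) and rounded. The 103 unnamed transcripts (0.0466% of counts) were left out. TPM was recomputed from these counts and the deposited effective lengths. The deposited TPM column and sleuth's p-values, q-values, effects and variances were not used. The submitters' processing notes list the build hg19, and no coordinate of it is used.

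Genes that reached 5 counts in 2 or more libraries were tested with edgeR 4.0.16 (TMM, quasi-likelihood, R 4.3.3) in place of sleuth, with Benjamini-Hochberg adjustment over all genes, a threshold of 0.05 and 4287 of 15101 genes called (28.4%). The study calls its 2 samples per line biological replicates, and p-values measure the spread between them only. An exact permutation of 2 against 2 has a smallest p of 0.333 and was not used. In simulated counts for PZT-2 against PANC-1 over 14879 genes, 20 of 50 genes changed by 0.5 on the log2 scale, 35 of 49 changed by 1 and 42 of 50 changed by 2 were called, with 14 false calls among 158. A far smaller share of genes was changed there than the 28.4% called in the data. The adjusted threshold was therefore stricter, and these rates do not give the power of the real comparison.

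The members and lists were chosen with earlier results of these data known, and some genes of the lists are not reported here. Named are the members, up to 3 called genes with the largest change per direction in each list, the targeted genes and each member's nearest tested genes where called. Alternatives were RLE factors, DESeq2 1.42.0, no or a stricter filter, limma 3.58.1 on log2(TPM + 1) and log2(TPM + 0.1), a replicate block, each library left out, counts as deposited, length-scaled counts, the most abundant transcript alone and a 2-fold minimum.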

Additional observations from a re-analysis of the deposited data

How the results depend on the processing

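All 9 members were called lower in 14 of 15 alternatives, and with a further minimum of a 2-fold change 5 were. That minimum alone left out FDPS (-0.89), IDI1 (-0.88), MVD (-0.75) and PMVK (-0.50), and no member reversed in any of 135 values. Those of the 2-fold minimum repeat the main fold changes and could not reverse. The highest adjusted p of a member was 0.0486, for IDI1 with the most abundant transcript alone. The median log2 fold change of the members was -0.88 with limma on log2(TPM + 1), -0.95 with log2(TPM + 0.1), -1.29 with the most abundant transcript alone and -1.16 to -0.95 with each library left out. Genes called numbered 2125 with the most abundant transcript alone, 836 with the 2-fold minimum and 2020 to 4626 with each library left out, where leaving out PZT-2 replicate 1 gave 2458 and replicate 2 gave 2020. Of the 25 member transcripts, DESeq2 called 12, where 4363 of all 30301 transcripts were called in either direction. A minimum of 10 counts in all 4 libraries left 9 called of 17 tested, where 1208 of all 20589 were called. With a library left out no transcript of any gene was called, so those fits say nothing particular to the members.

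With the 2-fold minimum, 4 genes from lanosterol to cholesterol were called lower, and of the sterol regulation genes 4 were called lower and 0 higher. In the prenyl list 0 were then called in either direction, 0 higher among the degradation genes and 0 lower among the supply genes. In the prenyl list the number called higher was 2 with the stricter filter, 3 with limma on either TPM scale, 0 with the most abundant transcript alone and 0 to 2 with each library left out, and the number called lower was 1 with the most abundant transcript alone and 1 to 2 with each library left out. Among the degradation genes 0 to 1 were called lower with each library left out. Among the supply genes 1 was called lower with limma on either TPM scale, 0 with the most abundant transcript alone and 1 to 2 with each library left out. The cause of these shifts was not tested.

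Replicate numbers showed no pairing across genes as a whole: deviations of replicate 1 in the lines correlated at r = -0.0206 over 15101 genes. A pairing that touches only some genes is not excluded. With the replicate number as a block, 3738 genes and 9 members were called, 1 degradation gene was called higher and 1 supply gene lower. In that fit 0 of all 30301 transcripts tested were called, and so none of the members'. Leaving a line with 1 library assumes that it varies like the other line. Depth limits the transcripts and genes with few counts, such as STARD4 at 2 and 3 counts in PZT-2.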
